A study of Rattus norvegicus with 7 samples.

Results

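The genes described here were Sftpc (surfactant protein C, ENSRNOG00000011177), Sftpd (surfactant protein D, ENSRNOG00000056001) and Ctsh (cathepsin H, ENSRNOG00000014064), 3 of the 23918 genes in the deposited table of fetal rat lung. They were chosen by name, with earlier results of these data known, and found by these identifiers. They are secreted surfactant proteins and a protease that takes part in maturing surfactant protein C. Bulk RNA-sequencing had been performed on lungs of Sprague-Dawley fetuses 24 h after ultrasound-guided intra-amniotic (IA) injection on embryonic day 18. Control lungs (n = 3) had received PBS, and IA LPS lungs (n = 4) had received 10 µg of Escherichia coli lipopolysaccharide, the bacterial cell wall component that triggers innate immune signaling. No other agent or genetic change was given to either group. The main comparison used 6 lungs, the controls and IA LPS replicates 1 to 3, which are the lungs of the study's own counts sheet. IA LPS replicate 4 has a column in the deposited table, is absent from that sheet and is shown apart throughout. The labels do not say which lungs came from the same litter, so the p-values measure only the spread between these lungs.

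Pulmonary surfactant is the film of lipid and protein that lowers surface tension in the air spaces, and its production begins in the distal epithelium late in gestation. Surfactant protein C is a small hydrophobic peptide made by alveolar type 2 cells, which cut it out of a larger precursor and store it with lipid in lamellar bodies. Cathepsin H is a lysosomal cysteine protease that takes part in that cutting and is also present in macrophages and many other cells. Surfactant protein D belongs to the collectins, soluble lectins that bind sugars on microbes, LPS included, and is made by type 2 cells and by airway epithelium.

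Total counts per lung ranged from 25031802 to 28336462, so that 3 counts, taken as the floor, equalled 0.106 to 0.12 CPM (counts scaled to a common library total). All 3 genes lay far above this floor in every lung and passed the filter on low counts. Nkx2-1, the transcription factor that marks lung epithelium, was between 310.4 and 389.0 CPM in all 7 lungs. Some markers of other tissues were uneven between lungs. Alb, made by liver, reached 512.3 CPM in control replicate 3 and was 2.409 to 83.74 CPM elsewhere, and Rag1, a marker of thymocytes, reached 27.77 CPM in IA LPS replicate 2 and was at most 1.019 CPM elsewhere. Dntt, the other thymocyte marker tested, was at 0.6179 CPM in that lung and 0.334 to 0.6587 CPM in the others. Of the heart muscle genes, Nppa was at 128.4 CPM in control replicate 1 and 1.589 to 21.38 CPM elsewhere. Tnnt2 was at 86.16 CPM in that lung and 88.59 CPM in IA LPS replicate 4, against 10.5 to 39.39 CPM elsewhere. Their part in the results was not tested.

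After IA LPS, Sftpd and Ctsh rose past every threshold used, while Sftpc was higher in each IA LPS lung than in each control but fell short of the fold change required. Sftpd changed by far the most, 6.14-fold, against 1.56-fold for Ctsh and 1.47-fold for Sftpc. Following the study's thresholds, a gene counted as called when its fold change reached 1.5 and edgeR's quasi-likelihood test gave p under 0.05 with an adjusted p under 0.1. By this rule 515 of 15627 tested genes were called, 3.30% of them, with 2.17% higher and 1.13% lower in IA LPS. Over all 7 lungs 1.90% were called, and 1.40% were called higher. Because the tissue was sequenced in bulk, more cells of a type and more RNA per cell cannot be told apart in any of these values.

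**Figure D1:**
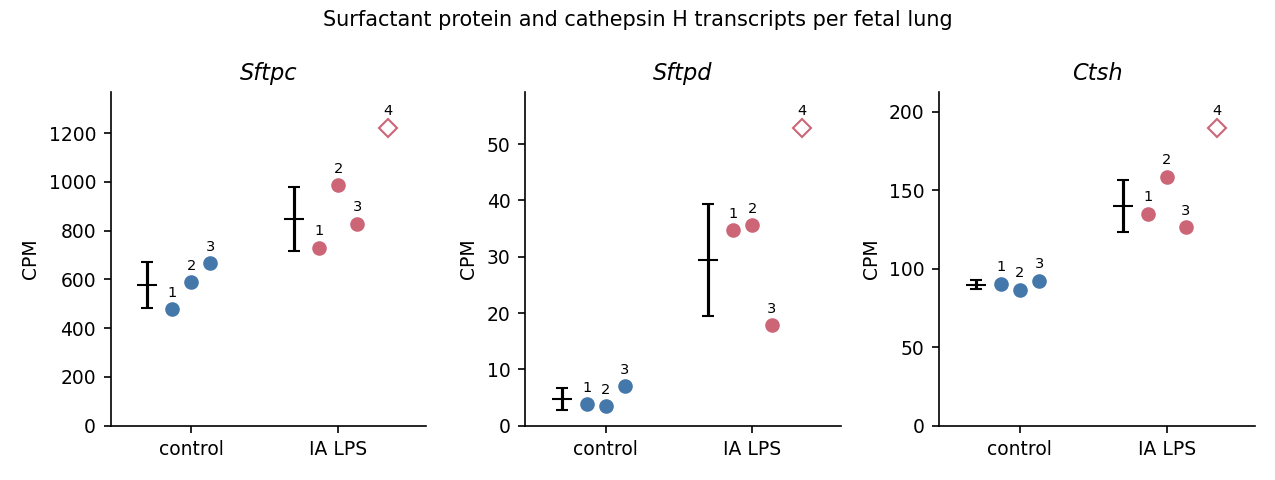
CPM (y axis, linear from 0, a separate scale for each gene) of Sftpc, Sftpd and Ctsh in each fetal lung, with the replicate number beside each point. Filled circles are replicates 1 to 3 of each group, the open diamond is IA LPS replicate 4, and black bars are the mean ± SD of replicates 1 to 3. Every IA LPS lung lay above every control for all 3 genes, and replicate 4 was the highest at 1222, 52.92 and 189.7 CPM.

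Sftpc, the surfactant peptide of type 2 cells, was at 478.2, 588.5 and 666.6 CPM in control replicates 1, 2 and 3. It was at 728.8, 986.2 and 829.1 CPM in IA LPS replicates 1, 2 and 3, and at 1222 CPM in replicate 4. The groups did not overlap, but the gap was narrow, since the lowest IA LPS lung was 1.09 times the highest control. The mean was 577.8 ± 94.65 CPM in controls and 848.0 ± 129.7 CPM after IA LPS (SD, n = 3 each). In edgeR's test this was 0.55 on the log2 scale (SE 0.14), with an adjusted p of 0.0669. Sftpc therefore met both p thresholds, as did 5.11% of tested genes in the same direction, and missed the fold change of 1.5, at 1.47. Among all tested genes 6.57% had a higher log2 fold change.

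With replicate 4 included, the log2 fold change of Sftpc was 0.71 (SE 0.19) and the adjusted p was 0.145 by edgeR, so the fold change requirement was then met and the adjusted p was not. Leaving out single lungs moved it both ways. Without control replicate 3 or without IA LPS replicate 1 the gene was called, at log2 fold changes of 0.67 and 0.65. Without control replicate 1 or IA LPS replicate 2 the log2 fold change was 0.43 in both cases and the gene was not called. The spread between control lungs was 16.4% of their mean (coefficient of variation, CV), against 0.803% that counting alone would give at this depth.

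Sftpd, the collectin, had the fewest counts of the 3, which were not divided by gene length, with 93, 94 and 199 counts in the controls and 995, 979 and 501 in IA LPS replicates 1, 2 and 3. In CPM the controls were at 3.829, 3.474 and 6.992, and the IA LPS lungs at 34.73, 35.58 and 17.87, with 52.92 in replicate 4. Control replicate 3 was the highest control and IA LPS replicate 3 the lowest treated lung, and between them there was still a 2.56-fold gap. The means were 4.765 ± 1.937 and 29.4 ± 9.99 CPM (SD, n = 3 each). The log2 fold change was 2.62 (SE 0.33) with an adjusted p of 0.00984 by edgeR, and it was 2.88 (SE 0.40) with an adjusted p of 0.0389 over all 7 lungs.

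The rise of Sftpd was among the largest in the lung. It ranked 11 of 15627 tested genes by log2 fold change, and 8 of the 14314 that averaged 1 CPM or more. The gene was called with any one of the 6 lungs left out, with log2 fold changes from 2.43 to 3.01. Its relative spread was also the widest, with a CV of 40.7% between controls and 33.98% between IA LPS replicates 1 to 3, where counting alone would give 8.82% and 3.48%.

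Ctsh, the protease, was nearly level between controls, at 90.4, 86.48 and 92.24 CPM. It was at 134.9, 158.4 and 126.2 CPM in IA LPS replicates 1, 2 and 3 and at 189.7 CPM in replicate 4. The groups were well apart, with the lowest IA LPS lung 1.37 times the highest control. The means were 89.71 ± 2.939 and 139.8 ± 16.62 CPM (SD, n = 3 each), a difference of 0.64 in log2 (SE 0.09) at an adjusted p of 0.0125 by edgeR. Over 7 lungs the log2 fold change was 0.76 (SE 0.14) and the adjusted p was 0.0585 by edgeR.

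The CV of Ctsh was 3.28% between controls, close to the 2.05% from counting alone, and 11.9% between IA LPS replicates 1 to 3. Sftpc, with a similar fold change and a wider spread, had the larger adjusted p. The call was lost without IA LPS replicate 2, where the log2 fold change was 0.54 with an adjusted p of 0.031 by edgeR, and it was kept with any other of the 6 lungs left out. Of all tested genes, 5.22% had a higher log2 fold change than Ctsh.

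**Figure D2:**
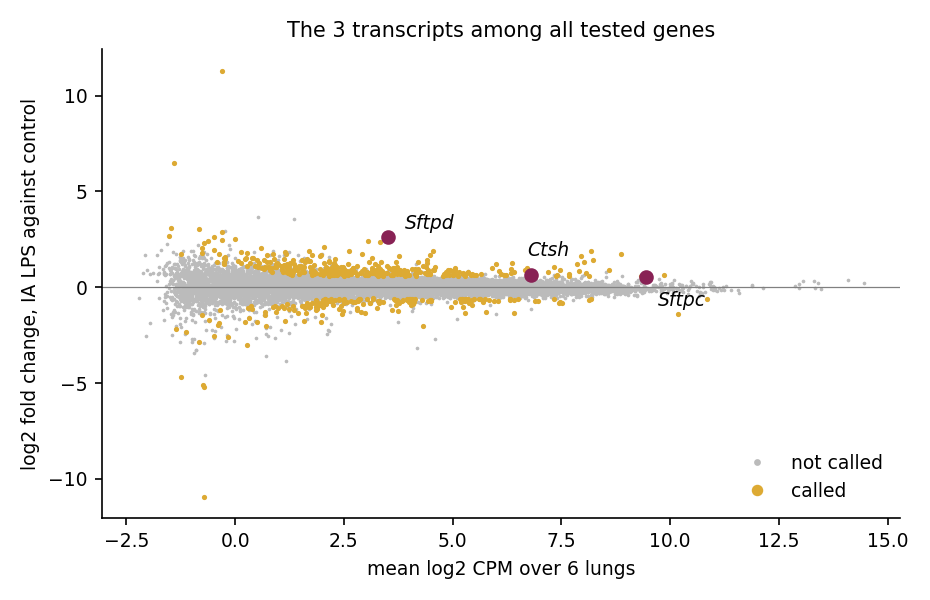
Log2 fold change, IA LPS against control (y axis), against the mean log2 CPM over the 6 lungs (x axis) for all 15627 tested genes. Gold points are the 515 called genes, gray points are the others, and the 3 purple points are Sftpd at 2.62, Ctsh at 0.64 and Sftpc at 0.55.

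Ratios of counts within a lung do not depend on library size, and they showed whether the genes changed in step. They are ratios of counts, not of molecules per length, so only their change between lungs was read. For 1000 Sftpc counts, the controls held 8.006, 5.903 and 10.49 counts of Sftpd. IA LPS replicates 1, 2 and 3 held 47.66, 36.08 and 21.56, and replicate 4 held 43.3. The ratio was 4.21-fold higher after IA LPS, with a difference in mean log2 ratio of 2.08 (SE 0.41), and the groups did not overlap.

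Against Ctsh, too, Sftpd was higher in each IA LPS lung. The ratio of Sftpd to Ctsh counts was 0.0424, 0.0402 and 0.0758 in controls and 0.258, 0.225 and 0.142 in IA LPS replicates 1, 2 and 3, with 0.279 in replicate 4. The difference in mean log2 ratio was 2.00 (SE 0.39), again with no overlap. For both ratios the two-sided exact permutation p was 0.1, the smallest that 3 lungs against 3 can give, and 0.12 after Benjamini-Hochberg adjustment over 6 ratios, so the threshold could not be reached. With all 7 lungs both exact permutation p-values were 0.0571, the smallest that 3 against 4 can give.

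The ratio of Ctsh to Sftpc, by contrast, did not separate the groups. It was 0.189, 0.147 and 0.138 in controls, 0.185, 0.161 and 0.152 in IA LPS replicates 1, 2 and 3, and 0.155 in replicate 4. The groups overlapped, and the difference in mean log2 ratio was 0.08 (SE 0.16, two-sided exact permutation p = 0.6). The small difference did not keep its sign when control replicate 3 or IA LPS replicate 1 was left out. An SE of this size leaves room for a modest difference, so equal change was not shown.

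**Figure D3:**
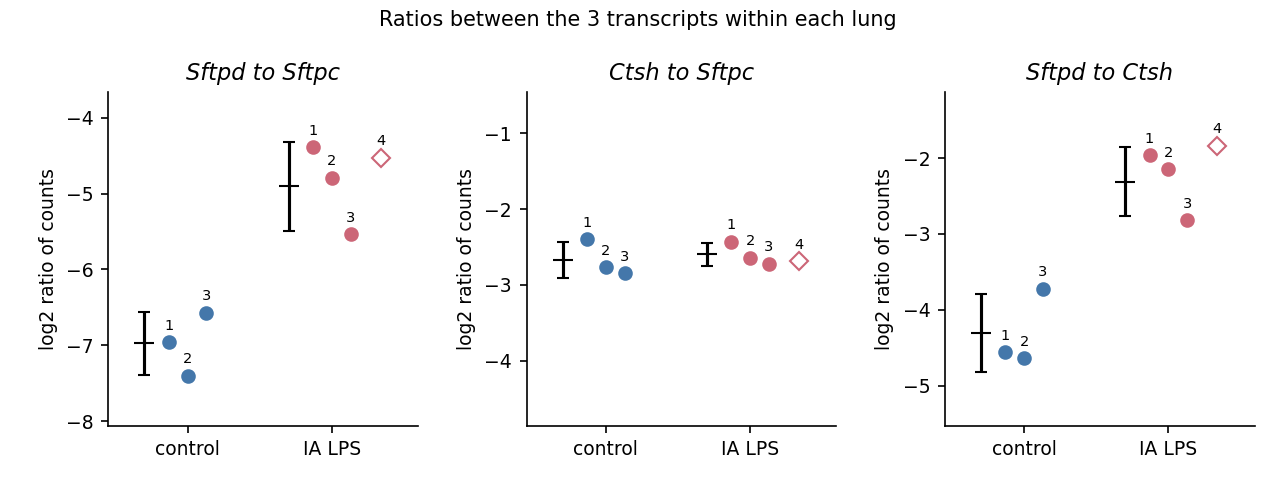
Log2 ratio of counts (y axis) of Sftpd to Sftpc, Ctsh to Sftpc and Sftpd to Ctsh in each lung, with axes of equal span. Filled circles are replicates 1 to 3, the open diamond is IA LPS replicate 4, and bars are the mean ± SD of replicates 1 to 3. The group means of both ratios with Sftpd as numerator differed by about 2 log2 units with no overlap, and the ratio of Ctsh to Sftpc overlapped.

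Set against Nkx2-1, whose log2 fold change was 0.08 (SE 0.09, adjusted p = 0.68 by edgeR), all 3 genes were higher in every IA LPS lung. The difference in mean log2 ratio to Nkx2-1 was 2.55 (SE 0.52) for Sftpd, 0.55 (SE 0.18) for Ctsh and 0.47 (SE 0.20) for Sftpc, each with an exact permutation p of 0.1. For Sftpc the separation was minimal, since the ratio was 2.058 in control replicate 3 and 2.067 in IA LPS replicate 1.

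The lungs were ordered alike by all 3 genes at the top. IA LPS replicate 4 was the highest lung for each, replicate 2 the second and control replicate 3 the highest control. Replicate 4 was at 2.12 times the control mean for both Sftpc and Ctsh and at 11.1 times for Sftpd. It was the highest lung for 31.7% of 15750 tested genes, and the highest with no overlap between groups for 6.29%. Groups did not overlap, with IA LPS higher, for 14.8% of genes over 6 lungs and 10.6% over 7.

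Sftpd and Ctsh ranked all 7 lungs identically, from IA LPS replicates 4, 2, 1 and 3 to control replicates 3, 1 and 2. Of the other 15749 tested genes 0.273% had that same order. It needs every IA LPS lung above every control, as 1667 of 15750 tested genes had, and 43 genes besides Ctsh shared the order. Several neighbors in it were nearly tied, such as Sftpd in IA LPS replicates 2 and 1 at 35.58 and 34.73 CPM. Sftpc put IA LPS replicate 3 above replicate 1 and control replicate 2 above replicate 1. The lungs highest for the 3 genes, IA LPS replicates 4 and 2, were also the highest for Hba-a1, a hemoglobin gene of red cells, at 30920 and 28330 CPM against 13030 to 19430 CPM elsewhere. Alas2, an enzyme of heme synthesis in red cell precursors, was also highest in these lungs, at 158.9 and 167.5 CPM. Slc4a1, the anion exchanger of red cells, was highest in replicate 2 at 247.0 CPM, but at 134.8 CPM in replicate 4 it was below control replicate 3 at 157.0 CPM. The part of blood content in the order was not tested.

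**Figure D4:**
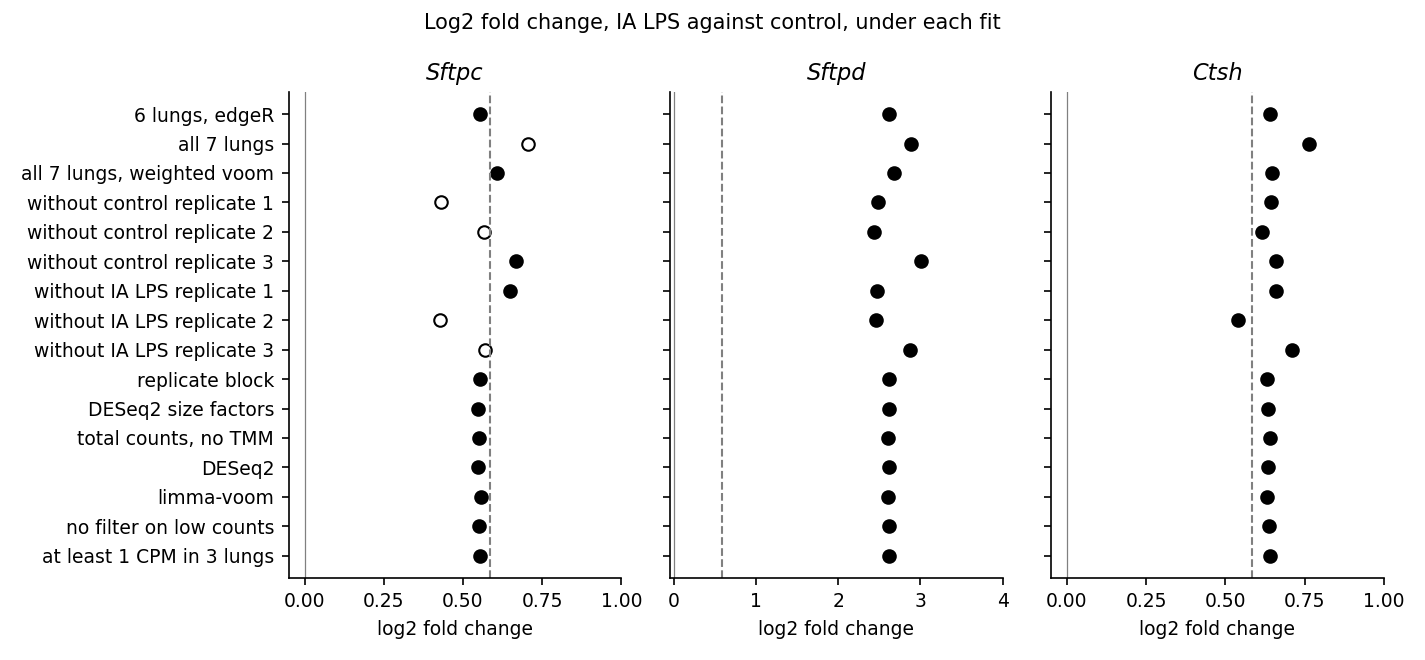
Log2 fold change (x axis, a separate scale for each gene) of Sftpc, Sftpd and Ctsh under the main fit, at the top, and each alternative fit. Filled points have an adjusted p under 0.1, open points do not, and the dashed line marks a fold change of 1.5. Sftpd lay at 2.43 or above in every fit, Ctsh passed the line in all but 1, and Sftpc lay on both sides of it.

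Few other surfactant genes could be read, because only 36 of 134 genes of interest had an identifier paired with a name, and nearly all of these had been named for a change in placenta. Sftpa1 and Sftpb, the other surfactant proteins, had no paired identifier, so they could not be told from the unnamed genes. Of 3 proteases of surfactant processing, Ctsh rose and Napsa, the aspartic protease that cuts the precursor of surfactant protein B, did not pass. Napsa was at 17.25, 31.78 and 30.25 CPM in controls and 33.44, 42.34 and 38.03 CPM in IA LPS replicates 1, 2 and 3, and its log2 fold change was 0.52 (SE 0.21, adjusted p = 0.188 by edgeR). Unlike the 3 genes above, it was not highest in replicate 4, at 34.78 CPM.

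Of 12 genes of lamellar bodies and surfactant lipid, only Scd had an identifier. This fatty acid desaturase was at 3.696 to 6.5 CPM in controls and 3.531 to 5.934 CPM after IA LPS, with a log2 fold change of -0.03 (SE 0.26), and it was not called. Of 10 distal epithelial transcription factors 2 were tested and none was called. Foxa1, which acts with Nkx2-1 on lung epithelial genes, differed by 0.30 in log2 (SE 0.15, adjusted p = 0.264 by edgeR). It was at 36.65 to 49.61 CPM in controls and 42.17 to 59.18 CPM in IA LPS replicates 1 to 3, but at only 16.03 CPM in replicate 4, the lung with the most Sftpc, Sftpd and Ctsh.

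Ctsh was in a pair of the study's gene ontology lists and Sftpd in 1 of them, while Sftpc was in neither. The lists were chosen on the same 6 lungs, so their direction is not independent evidence. The list for surfactant homeostasis had 4 genes, Sftpd, Ctsh, Fgf7 and a gene with no paired name. Fgf7, a growth factor of mesenchyme that acts on epithelium, was at 4.48 ± 1.354 CPM in controls and 7.018 ± 1.354 CPM after IA LPS (SD, n = 3 each), and was not called (log2 fold change 0.64, adjusted p = 0.157 by edgeR). Without control replicate 3 it was called, at a log2 fold change of 0.92. The unnamed gene rose from 180.3 ± 22.48 to 323.2 ± 13.57 CPM, with a log2 fold change of 0.84 (adjusted p = 0.00744 by edgeR), and was at 217.3 CPM in replicate 4. The list for the lamellar body held Ctsh, that same unnamed gene and ENSRNOG00000010761, which rose from 153.7 ± 47.12 to 571.9 ± 110.6 CPM and was at 893.9 CPM in replicate 4. Its log2 fold change of 1.89 (SE 0.23) lay between those of Ctsh and Sftpd.

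Of 10 markers of type 2 cells only Sftpc and Napsa were tested, and neither was called. Markers of other cells that make or could carry these transcripts moved as well. Of 8 type 1 cell markers 2 were tested, and both rose. Cldn18, a tight junction protein of alveolar epithelium, went from 230.3 ± 48.09 to 349.2 ± 22.41 CPM (log2 fold change 0.60, adjusted p = 0.0467), and Emp2, a membrane protein of type 1 cells, from 135.4 ± 23.33 to 204.8 ± 31.44 CPM (log2 fold change 0.60, adjusted p = 0.0535), both by edgeR with n = 3 each. The summed level of the type 1 list was 311.0 to 446.6 CPM in controls, against 520.9 to 616.2 CPM in IA LPS replicates 1 to 3 and 639.2 CPM in replicate 4. Neither call was robust to single lungs. The call of Cldn18 was lost without any lung but control replicate 2, with log2 fold changes of 0.49 to 0.63, and that of Emp2 without control replicates 1 or 3 or IA LPS replicates 1 or 2, at 0.46 to 0.65. Of 7 ciliated cell markers only Drc1, a part of the motile cilium, was tested. It rose from 2.761 ± 0.5305 to 5.269 ± 0.8758 CPM (log2 fold change 0.93, adjusted p = 0.0456 by edgeR), and the call was lost without control replicates 1 or 2 or IA LPS replicates 1 or 2 (log2 fold changes of 0.82 to 0.90, adjusted p of 0.12 to 0.149). No pan-epithelial or club cell marker had an identifier.

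Macrophages also contain cathepsin H, and most of their tested markers rose. Of 11 macrophage markers 7 were tested, 5 were called higher and none lower, with a median log2 fold change of 0.68 against 0.0029 for all tested genes. In this and the other marker lists, only genes with a paired name could be tested, nearly all named for a change in placenta. They may lean toward genes that respond to LPS, so the comparison with all tested genes is not an even one. C1qb, a chain of complement C1q, was at 39.23, 35.48 and 44.27 CPM in controls and 69.68, 67.5 and 53.26 CPM in IA LPS replicates 1, 2 and 3, with 90.74 CPM in replicate 4. Its log2 fold change of 0.68 (SE 0.12, adjusted p = 0.0206 by edgeR) was of the size seen for Ctsh, and it was called with any one of the 6 lungs left out. The partner chains C1qc and C1qa had log2 fold changes of 0.83 and 0.69. The call of C1qc was lost without control replicate 1 (log2 fold change 0.73, adjusted p = 0.112 by edgeR), and that of C1qa without control replicate 1 (log2 fold change 0.61, adjusted p = 0.126) or IA LPS replicate 2 (log2 fold change 0.63, adjusted p = 0.111). The summed macrophage level was 258.9 to 354.0 CPM in controls and 409.6 to 517.3 CPM in IA LPS replicates 1 to 3. It was 414.4 CPM in replicate 4, which was the highest lung for Ctsh but not for this sum. Much of the sum came from Lyz2, the lysozyme of macrophages, which was at 148.0 CPM in replicate 4, below control replicates 2 and 3 at 156.7 and 209.6 CPM. Lyz2 was among the 5 called markers (log2 fold change 0.61, adjusted p = 0.0618 by edgeR), but not with any lung other than control replicate 3 left out (0.48 to 0.67) or over 7 lungs (0.45). The C1q chains, by contrast, were all highest in replicate 4, as Ctsh was, with C1qa at 39.97 and C1qc at 110.4 CPM. Single lungs mattered for the count of called markers, which was 1 without control replicate 1, 2 without IA LPS replicate 2, and 3 without IA LPS replicate 3 or over all 7 lungs. The part of macrophages in the rise of Ctsh was not tested.

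Cx3cr1, a chemokine receptor of monocytes and macrophages, rose in the main comparison (log2 fold change 0.72, adjusted p = 0.0564 by edgeR) but was at 2.709 CPM in replicate 4, under every control. It was not called over 7 lungs (log2 fold change 0.48), nor without control replicates 1 or 3 or IA LPS replicates 2 or 3 (log2 fold changes of 0.62 to 0.68). Of 7 neutrophil markers 5 were tested and 2 were called higher. Not called were S100a8 (log2 fold change 1.38, adjusted p = 0.107 by edgeR), Camp (0.52) and Mpo, which went the other way (-0.17). S100a9, a calcium-binding protein of neutrophils, and Mmp8, their collagenase, had log2 fold changes of 1.89 and 1.85, at levels of at most 9.006 and 2.862 CPM. Both calls were lost when single lungs were left out, S100a9 with any lung but control replicate 3 and Mmp8 with any but control replicate 2. The log2 fold changes in those fits were 1.56 to 2.02 and 1.51 to 2.01, and the adjusted p-values by edgeR were 0.116 to 0.169 and 0.115 to 0.174. S100a9 was also not called over 7 lungs (log2 fold change 1.81, adjusted p = 0.127 by edgeR). The summed neutrophil level was 5.026 to 15.99 CPM in controls and 14.02 to 21.75 CPM in IA LPS replicates 1 to 3, ranges that overlapped. None of the tested markers of red cells (3), liver (2), heart muscle (3), thymocytes (2) or the acute response to LPS (1) was called in either direction by edgeR, although Apoa2 of liver and Rag1 had an unadjusted p under 0.05. With DESeq2 Apoa2 was called lower, at a log2 fold change of -2.89 (adjusted p = 0.0577). Il1b, a cytokine of the acute response, had too few counts to be tested, with 0, 1 and 0 counts in controls and 9, 6, 3 and 7 in IA LPS replicates 1 to 4.

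**Figure D5:**
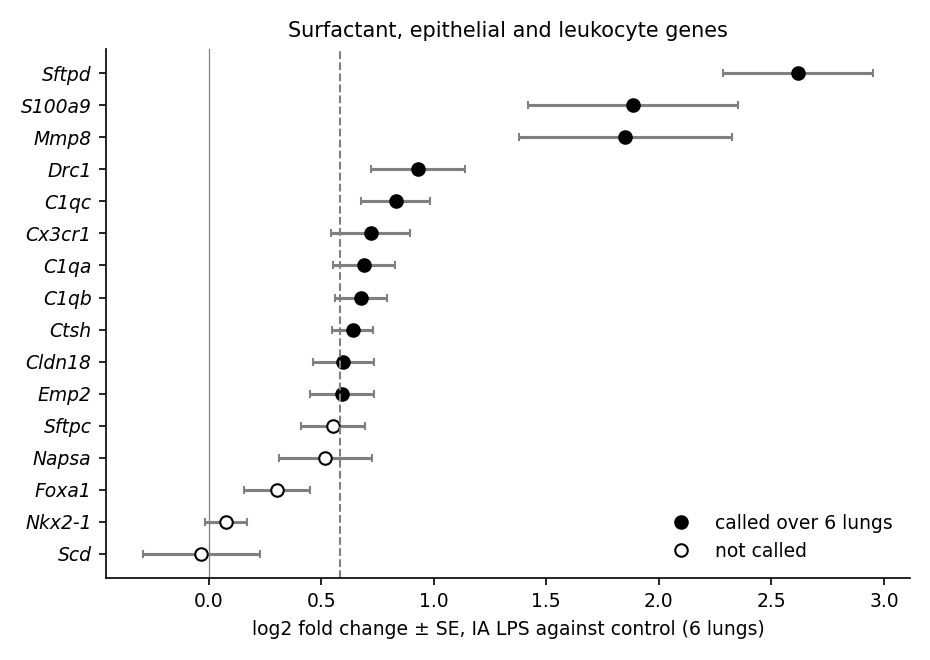
Log2 fold change ± SE over 6 lungs (x axis) of Sftpc, Sftpd, Ctsh and the other named genes of surfactant, epithelium and leukocytes, in order of size. Filled points were called, open points were not, and the dashed line marks a fold change of 1.5. Type 1, ciliated, macrophage and neutrophil markers were drawn only if called in this same fit, so their rise here is partly selected. Tested markers that were not called are left out, namely Cd68 (0.213), Adgre1 (0.495), S100a8 (1.38), Camp (0.52) and Mpo (-0.17). Sftpd at 2.62 stands highest, and Ctsh and Sftpc lie near the line among the epithelial and macrophage genes.

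The genes whose levels followed the 3 most closely were sought among 14311 genes averaging 1 CPM or more, by Pearson's r of log2 CPM over the 7 lungs. These values describe the pattern only, since the lungs fall into 2 groups. The nearest genes had r of 0.985 to 0.989 with Sftpc, 0.993 to 0.997 with Sftpd and 0.992 to 0.994 with Ctsh, taking 3 for each. None of them had a paired name, and no gene was nearest to more than 1 of the 3. The closest to Sftpd, ENSRNOG00000037814, rose from 5.263 ± 1.351 to 15.25 ± 2.833 CPM and was at 23.09 CPM in replicate 4, and its log2 fold change was 1.53 (SE 0.21, adjusted p = 0.0123 by edgeR).

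Of the 3 genes, the promoter of Ctsh was in the RefSeq table used here. LPS is known to activate NF-kB, and the 250 bases before the start of Ctsh are shown with the matches to a motif of this factor marked. They lie at chr8:99488506-99488755 on the plus strand of the GRCr8 assembly, which is not the build of the counts.
Ctsh promoter: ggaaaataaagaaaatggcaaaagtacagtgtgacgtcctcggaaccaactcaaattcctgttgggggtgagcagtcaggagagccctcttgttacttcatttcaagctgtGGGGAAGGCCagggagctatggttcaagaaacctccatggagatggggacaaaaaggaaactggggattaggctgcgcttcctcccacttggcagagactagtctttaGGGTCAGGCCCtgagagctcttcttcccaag
Capitals mark matches on either strand to a loose NF-kB motif, which is GGG, then 5 bases of any kind, then CC. There were 3 matches, of which 2 overlap in the second run of capitals, and 42.3% of 33469 promoter windows of this length held at least 1. No match was found to CTCAAG for NKX2-1 (13.3% of windows), TGANTCA for AP-1 (6.34%) or TTNNGNAAT for C/EBP (10.9%), both strands searched. The matches are a description of these letters.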

How the data were processed

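RNA-sequencing of 7 fetal lungs was analysed. Estimated counts for each gene were deposited, which the authors had made from paired-end reads with kallisto on rat build rno6.0 and summed with tximport, without normalization. Versions, annotation release and tximport option were not given in the sources used here, and kallisto divides reads between near-identical genes. Estimated counts were rounded, genes were filtered with filterByExpr (15627 kept in 6 lungs, 15750 in 7), and libraries were TMM-normalized and compared with edgeR 4.0.16's quasi-likelihood test in R 4.3.3, with Benjamini-Hochberg adjustment over all tested genes. Printed adjusted p-values are from this test. TMM factors over 7 libraries scaled the CPM, and a prior count of 2 was added for log2 CPM. Ratios used two-sided exact permutation tests (scipy 1.17.1). Alternatives were all 7 lungs, each lung left out, a replicate block, DESeq2 1.42.0, limma 3.58.1 voom, other filters, scalings and thresholds. The fit was tested on simulated data.

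Gene names came from the study's supplementary tables, which paired 2050 of the table's identifiers. Named genes were the 3 genes, every gene with an identifier in the surfactant, lamellar body and epithelial transcription factor lists, up to 4 called genes of each other list by p, and the 3 nearest genes by r. Genes of the 2 ontology lists were added after their values were seen, as were Hba-a1, Alas2, Slc4a1, Alb, Apoa2, Nppa, Tnnt2, Rag1, Dntt, Il1b and Lyz2. The 3 genes and all lists were chosen with earlier results of these data known. Of 21 lists, the collectin and cathepsin lists held only Sftpd and Ctsh, and those of surfactant uptake, pan-epithelial, club, mesenchyme and endothelial cells no identifier. The study's own fold changes and p-values were not used.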

Additional observations from a re-analysis of the deposited data

Results flagged for a closer look

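IA LPS replicate 4, which the main comparison did not use, was above all 3 controls for each gene, at 1222 CPM for Sftpc, 52.92 CPM for Sftpd and 189.7 CPM for Ctsh. It was flagged as a signal in data outside the main measurement that exceeded the controls. Taken with the other IA LPS lungs, it was not an outlier by Dixon's criterion for any of the 3 genes, with gaps of 0.478, 0.495 and 0.494 of the group's range in CPM against a critical value of 0.829. With so few lungs the criterion has little power, so it does not show that this lung was like the others. The same lung was the lowest for Foxa1, at 16.03 CPM.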

How the results depend on the processing

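Sftpd kept its call under all 17 alternatives. Ctsh kept it under all but 1, falling by the fold change requirement to 0.539 without IA LPS replicate 2, and its range with single lungs left out was 0.539 to 0.709. Sftpc, not called in the main comparison, was called under limma-voom with sample quality weights over 7 lungs (0.607, adjusted p = 0.0363), with no fold change threshold (0.553), and with some single lungs left out, where its range was 0.429 to 0.668. The difference in the log2 ratio of Ctsh to Sftpc turned sign without control replicate 3 (-0.011) and without IA LPS replicate 1 (-0.003), within a range of -0.011 to 0.214 over single lungs left out. The log2 fold change of Scd did so without control replicate 3 (0.221) or IA LPS replicate 3 (0.148), within -0.216 to 0.221. The cause was not tested. The 339 genes called higher and 176 called lower became 220 and 80 over 7 lungs, 799 and 700 with no fold change threshold, 220 and 103 at an adjusted p under 0.05, and 150 to 384 and 67 to 177 with single lungs left out. Replicate numbers showed no clear pairing of the lungs. The deviations of same-numbered lungs from their group means correlated over genes at 0.172, -0.096 and -0.205. Those of differently numbered lungs correlated at -0.21 to 0.339. So few values cannot exclude a pairing. With the replicate block the log2 fold changes were 0.555 for Sftpc, 2.613 for Sftpd and 0.633 for Ctsh, with 267 genes called higher and 150 lower. The block ended the calls of Drc1 (log2 fold change 0.93, adjusted p = 0.102) and Mmp8 (1.90, adjusted p = 0.119), whose log2 fold changes in the main comparison were 0.93 and 1.85. It also ended that of Lyz2 (0.627, adjusted p = 0.109, against 0.611 in the main comparison), leaving 4 of 5 macrophage markers called. Other alternatives also ended calls of leukocyte and epithelial markers. With 3 lungs a group no ratio test could pass its threshold.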
